A study of Mus musculus with 106 samples.

Results

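The neutrophil granule genes examined here were 10 named genes of 21938 protein-coding genes on the chromosomes used: Mpo, Elane, Prtn3 and Ctsg of the primary granule, Ltf, Camp and Ngp of the secondary granule, the calcium-binding pair S100a8 and S100a9, and the surface gene Ly6g. They were chosen by name, with earlier results of these data known, and not by a cutoff on a measured value. Histone marks were mapped by chromatin immunoprecipitation sequencing (ChIP-seq) in C57BL/6J mice that were 12 to 14 weeks old when assigned to a group. Diabetic mice received streptozotocin at 42 to 45 mg/kg per day for 5 days and were used 6 weeks later with blood glucose above 13.9 mmol/L; control mice were normoglycemic. HSC were bone marrow cells depleted of cells carrying CD3, CD4, B220, Ter119 or Gr1, so the name stands for an enriched mixture of stem and progenitor cells. BMDM were bone marrow-derived macrophages grown for 7 days in 5 mmol/L glucose with L929-conditioned medium. Stimulated BMDM had 16 hours of lipopolysaccharide (LPS, 100 ng/mL) with interferon-γ (IFN-γ, 10 ng/mL); the other BMDM had neither.

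Both marks sit on active genes: H3K4me3 at transcription start sites, and H3K27ac at active start sites and enhancers. Neutrophils make their granule proteins in order as they mature. The primary granule proteins are made first, in promyelocytes, and the secondary granule proteins later, in myelocytes and metamyelocytes; S100a8 and S100a9 are abundant in the cytosol of mature cells. The Gr1 antibody used for the depletion recognizes the Ly6g protein, so Ly6g and the mature granulocytes that carry it were removed from the HSC by design.

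Each mark had 35 libraries: 6 for each combination of cell state and disease, except 5 for diabetic unstimulated BMDM. The libraries held 13730 to 277213 peaks (median, 110154.5). Read totals are not in the lists, so the depth is unknown and list length is the only sign of it. H3K27ac lists had group medians of 92673.5 to 132443 peaks, whereas H3K4me3 lists of control HSC (median, 49624) were shorter than those of control unstimulated BMDM (median, 161118). Of 8 stem and progenitor genes, 5 had a higher H3K27ac promoter rank in control HSC than in control unstimulated BMDM, and of 7 macrophage genes tested 4 had a lower one. For H3K4me3, 0 of the 8 stem and progenitor genes and 2 of 6 macrophage genes differed. The complement gene C1qa had an H3K27ac promoter peak in 0 of 12 HSC and 10 of 11 unstimulated BMDM libraries, whereas the stem cell factor receptor gene Kit had one in 12 of 12 and 9 of 11. The study's methods count replicates as individual animals. The labels do not tie libraries to animals, so p-values measure the spread between these samples, which may share an animal across cell states and marks.

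Some control BMDM libraries lay on the other label's side of a stimulation score. This score was built from the 484 genes whose H3K27ac promoter rank changed with LPS+IFN-γ in diabetic mice, which places the diabetic libraries by construction. Its midpoint was also set by the diabetic libraries and need not be a neutral cut for control libraries. Whether any label is wrong was not tested. On it, control unstimulated replicates 1 (-6.52), 5 (-0.389) and 6 (-3.21) lay on the stimulated side of the midpoint (-8.14), and the control library labelled LPS+IFN-γ replicate 5 (-17.6) lay on the unstimulated side. The promoter, locus and occupancy calls in control mice are therefore also given without libraries of this set, and the comparisons in diabetic mice hold none of them.

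A promoter was taken as 1 kb to either side of any annotated start site. Each gene was given, in each library, the percentile of its strongest promoter peak among all protein-coding genes, from 0 (weakest) to 100 (strongest). Genes with no promoter peak share the lowest ranks, which put them at 13.2 to 21.6 in the H3K27ac libraries and 10.3 to 29.6 in the H3K4me3 libraries. Ltf with 10 start sites, and Mpo and Prtn3 with 6 each, had more windows in which a peak could fall than Elane, Camp and Ngp with 1.

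The RefSeq promoters (GRCm38.p6, 250 bases before to 50 after the start) of the 4 primary granule genes and of Camp are shown, because the differences between cell types reported below fall on Mpo, Ctsg and Camp, and Elane and Prtn3 are the primary granule genes without one. Capitals mark matches, on either strand, to 4 motif strings: C/EBP (TTNCNNAA), Runx (TGNGGT), PU.1 (GAGGAA) and Myb (AACNG).
Mpo (chr11:87793534-87793833, plus strand): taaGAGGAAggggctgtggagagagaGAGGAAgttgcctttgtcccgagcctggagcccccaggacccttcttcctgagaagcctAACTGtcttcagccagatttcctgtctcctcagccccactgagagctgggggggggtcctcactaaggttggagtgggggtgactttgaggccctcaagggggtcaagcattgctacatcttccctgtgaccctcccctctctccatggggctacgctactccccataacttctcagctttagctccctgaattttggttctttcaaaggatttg
Elane (chr10:79886062-79886361, plus strand): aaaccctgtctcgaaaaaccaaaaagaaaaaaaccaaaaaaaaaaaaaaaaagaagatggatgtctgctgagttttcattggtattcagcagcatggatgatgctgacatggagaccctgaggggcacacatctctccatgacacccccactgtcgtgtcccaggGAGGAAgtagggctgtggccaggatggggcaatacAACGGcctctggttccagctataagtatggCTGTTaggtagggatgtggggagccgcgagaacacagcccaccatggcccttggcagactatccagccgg
Prtn3 (chr10:79879417-79879716, plus strand): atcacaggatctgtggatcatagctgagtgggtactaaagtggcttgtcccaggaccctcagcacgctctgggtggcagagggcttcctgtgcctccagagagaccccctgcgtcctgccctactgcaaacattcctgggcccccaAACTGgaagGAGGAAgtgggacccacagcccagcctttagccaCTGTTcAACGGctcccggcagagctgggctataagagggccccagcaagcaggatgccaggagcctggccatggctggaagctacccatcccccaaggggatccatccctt
Ctsg (chr14:56102525-56102824, minus strand): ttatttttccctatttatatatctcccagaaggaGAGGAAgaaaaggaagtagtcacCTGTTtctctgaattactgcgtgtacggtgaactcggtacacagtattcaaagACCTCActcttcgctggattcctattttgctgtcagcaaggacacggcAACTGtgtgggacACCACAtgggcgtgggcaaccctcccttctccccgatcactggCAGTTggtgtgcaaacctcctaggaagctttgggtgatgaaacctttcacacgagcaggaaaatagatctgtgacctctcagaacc
Camp (chr9:109849407-109849706, minus strand): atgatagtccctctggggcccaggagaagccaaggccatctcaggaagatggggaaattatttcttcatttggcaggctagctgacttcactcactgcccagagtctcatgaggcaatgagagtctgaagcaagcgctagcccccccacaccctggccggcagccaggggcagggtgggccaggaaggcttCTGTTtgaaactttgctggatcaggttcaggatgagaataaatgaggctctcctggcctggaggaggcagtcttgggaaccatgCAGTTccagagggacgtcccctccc

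The PU.1 string was found in all 4 primary granule promoters, with 2 matches in Mpo and 1 each in Elane, Prtn3 and Ctsg; 28.3% of 32851 RefSeq promoters held it. It was not found in the windows of Camp, Ngp and S100a9, but had 1 match in Ltf, 2 in S100a8 and 2 or 3 in the Ly6g windows. The Runx string had 2 matches in Ctsg and none in the windows of Mpo, Elane, Prtn3 and Camp, and 45.8% of all promoters held it. Ltf and S100a9 also had 2 Runx matches each. The C/EBP string, held by 40.7% of promoters, was absent from all 5 windows printed but had 2 matches in Ltf and 3 in Ngp. S100a8 had 1 C/EBP match, S100a9 had 2 and the Ly6g windows had 1 or 2. The Myb string was common (80.3% of promoters) and had 1 to 3 matches in each printed window. No match overlapped another in the printed windows. The windows held the following numbers of CpG pairs: 2 in Mpo, 3 in Camp, 4 in Prtn3, 6 in Elane and 8 in Ctsg, against a median of 7 over all RefSeq promoters. These matches are descriptions of letters and do not show binding.

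H3K27ac at the granule gene promoters differed between cell types for Mpo and Ctsg, which ranked higher in HSC, and for Camp, which in control mice ranked higher in BMDM. In control mice, 3 of the 7 members tested passed the threshold (adjusted p of 0.05 or less, limma), where 16% of all 16981 genes tested did. In diabetic mice 2 of 7 passed, where 15.8% of all genes did. S100a8, S100a9 and Ly6g had a promoter peak in fewer than 5 libraries and were not tested. The median difference between HSC and unstimulated BMDM over the 7 tested members was 5.11 percentile points in control mice and 5.33 in diabetic mice.

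**Figure D1:**
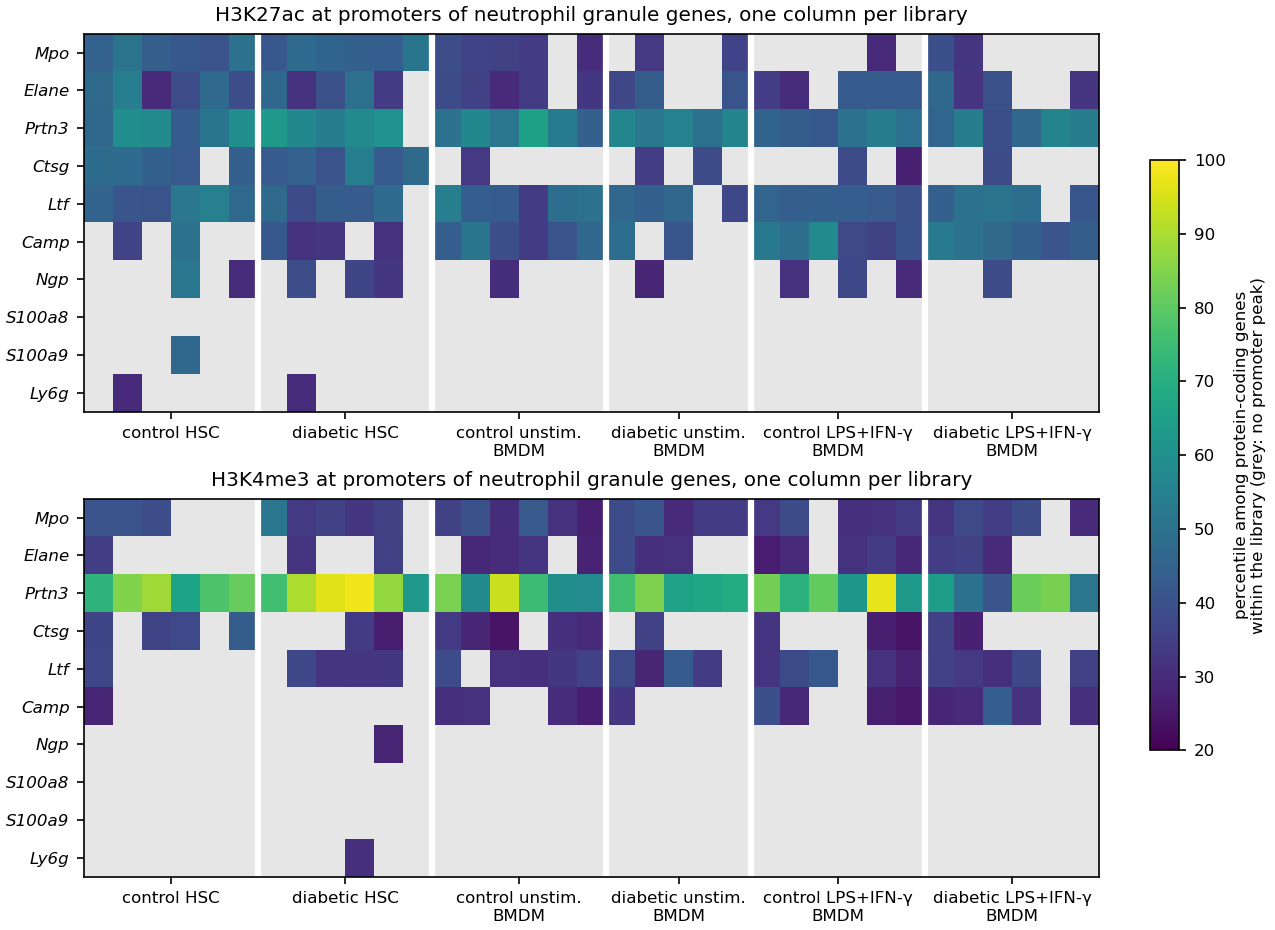
H3K27ac (top) and H3K4me3 (bottom) at the promoters of the 10 genes (rows) in each library (columns, grouped by cell state and disease); color gives the within-library percentile and grey marks a library without a promoter peak. For H3K27ac, Mpo is filled in 12 of 12 HSC libraries and Ctsg in 11 of 12, whereas S100a8 is grey in every library.

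Mpo encodes myeloperoxidase, the heme enzyme that makes hypochlorous acid. It lies on chromosome 11 (chr11:87793581-87804413, GRCm38, plus strand). Its H3K27ac promoter percentile in control HSC ran from 40.4 to 50.9 (median, 44.7; mean, 45.5 ± 4.15, SD, n = 6), and in control unstimulated BMDM from 20.1 to 38.8 (median, 34.7; mean, 32.4 ± 6.65, n = 6). In diabetic HSC it ran from 41.8 to 51.02 (median, 45.2; mean, 45.8 ± 3.24, n = 6), and in diabetic unstimulated BMDM the 5 libraries stood at 16.6, 33.3, 20.3, 17.3 and 36.2 (replicates 1, 2, 4, 5 and 6, the order used for this group throughout). The lowest HSC library lay above the highest unstimulated BMDM library in both disease groups. The share of all genes separated in this way was not counted, so such separations, here and below, are only descriptions. HSC ranked 13.1 points higher in control mice (SE, 4.68; 95% CI, 3.67 to 22.4; adjusted p = 0.0472) and 21.1 points higher in diabetic mice (SE, 4.90; 95% CI, 11.2 to 30.9; adjusted p = 0.00179). The diabetic call was kept with each library left out in turn (19.1 to 23.9 points). The control call was lost in 10 of 12 such fits (10.6 to 14.3 points; highest adjusted p = 0.131) and without 3 control BMDM libraries (9.44 points; adjusted p = 0.230).

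Part of the Mpo signal in BMDM came from start sites other than the RefSeq one. With RefSeq start sites only, a choice made after the data were seen, a promoter peak was held by 11 of 12 HSC, 2 of 11 unstimulated and 0 of 12 LPS+IFN-γ BMDM libraries, against 12, 7 and 3 with any start site. The difference in rank was then 22.3 points in control (adjusted p = 0.000243) and 23.8 points in diabetic mice (adjusted p = 0.000199). By that measure 15.5% and 15.3% of all genes were called. The RefSeq counts for Mpo gave an adjusted p of 0.0171 (Fisher's exact test, two-sided), where 9.61% of genes were called. The Mpo promoter peaks in HSC had a median -log10 p of 12.3 and a median place of 21850 in their lists, and those in the 7 unstimulated BMDM libraries that had one were weaker (median, 6.84, at place 83535.5).

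Ctsg encodes cathepsin G, a serine protease of the same granule (chr14:56099881-56102574, minus strand). Its H3K27ac percentile in control HSC was 17.0 to 48.3 (median, 44.5; mean, 40.8 ± 11.9, n = 6), with 1 library that had no peak. In control unstimulated BMDM it was 14.0 to 33.4 (median, 17.0; mean, 19.4 ± 7.22, n = 6), with a peak in 1 library. In diabetic HSC it was 40.4 to 54.7 (median, 44.0; mean, 45.6 ± 5.01, n = 6), and the 5 diabetic unstimulated BMDM libraries stood at 16.6, 34.5, 20.3, 38.5 and 14.4. The groups overlapped in control mice through the 1 HSC library without a peak and did not overlap in diabetic mice. HSC ranked 21.4 points higher in control (SE, 5.33; 95% CI, 10.7 to 32.1; adjusted p = 0.00346) and 20.7 points higher in diabetic mice (SE, 5.59; 95% CI, 9.52 to 32.0; adjusted p = 0.00712). Both calls were kept with each library left out in turn, at 19.9 to 26.2 points in control and 18.1 to 24.2 points in diabetic mice, and the control call was kept without the 3 or 4 control BMDM libraries named above.

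Counting libraries with a Ctsg promoter peak gave 11 of 12 HSC and 3 of 11 unstimulated BMDM libraries (Fisher's exact test, two-sided, adjusted p = 0.0430), where 9.48% of the 4187 genes tested were called, 5.73% with more and 3.75% with fewer HSC libraries. Ctsg was the only member called in this test, and the call was lost without 2 of the unstimulated control libraries (adjusted p = 0.127). It was also lost in 19 of 23 of these exact tests with a single library left out (highest adjusted p = 0.0897). For Mpo the counts of 12 of 12 and 7 of 11 gave an adjusted p of 0.1505 in the same exact test.

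**Figure D2:**
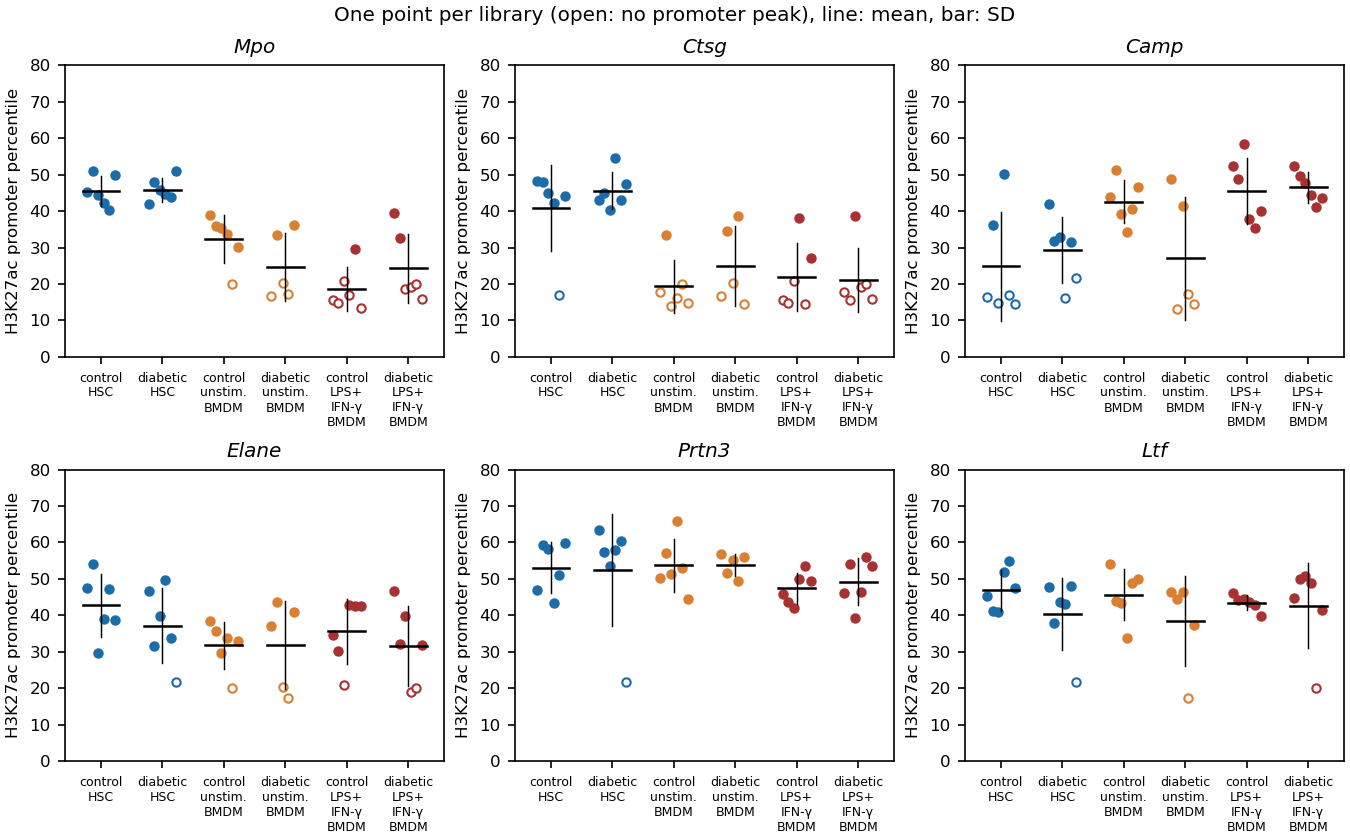
H3K27ac promoter percentile (vertical axis) of 6 granule genes in each library, by cell state and disease (n = 6 per group, 5 for diabetic unstimulated BMDM); open points have no promoter peak, lines are means and bars are SD. Mpo and Ctsg are higher in HSC, Camp is lowest on average in control HSC (24.9), and the group means of Prtn3 stay between 47.4 and 53.8.

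Elane (chr10:79886247-79888215, plus strand) encodes neutrophil elastase, and its neighbor Prtn3 (chr10:79874476-79883174, plus strand) encodes proteinase 3. Elane ranked at a mean of 42.7 ± 8.63 (n = 6) in control HSC, with 29.7 the lowest, 43.2 the median and 54.1 the highest, and at 31.8 ± 6.43 (n = 6; 20.1, 33.4 and 38.5) in control unstimulated BMDM. These groups overlapped, and the difference of 10.97 points did not pass the threshold (95% CI, -0.217 to 22.2; adjusted p = 0.183). In diabetic mice the difference was 5.33 points (95% CI, -6.41 to 17.1; adjusted p = 0.590). Prtn3 had group means of 47.4 to 53.8 and a promoter peak in 34 of 35 libraries: 11 of 12 HSC, 11 of 11 unstimulated and 12 of 12 LPS+IFN-γ BMDM. Its differences between HSC and unstimulated BMDM were -0.555 points in control (95% CI, -9.90 to 8.79) and -1.44 in diabetic mice (95% CI, -11.2 to 8.35).

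The strong Prtn3 peak lay at a noncoding start site upstream of the RefSeq start, next to the divergent start of Plppr3, and the lists cannot say to which gene it belongs. A region there (-6399 to -4599 bp from the RefSeq start) was held for H3K27ac by 33 of 35 libraries. With RefSeq start sites only, H3K27ac covered the Prtn3 promoter in 11 of 12 HSC, 8 of 11 unstimulated and 7 of 12 LPS+IFN-γ BMDM libraries, and its group means fell to between 30.4 and 39.9. The differences between cell types then were 6.75 points in control (95% CI, -4.87 to 18.4) and -1.21 points in diabetic mice (95% CI, -13.4 to 10.98), neither past the threshold.

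Among the secondary granule genes, Camp, which encodes the cathelicidin antimicrobial peptide (chr9:109847379-109849617, minus strand), went the other way. Its H3K27ac percentile in control HSC was 14.5 to 50.1 (median, 16.8; mean, 24.9 ± 14.9, n = 6), with a peak in 2 libraries, and in control unstimulated BMDM 34.2 to 51.2 (median, 42.2; mean, 42.6 ± 5.97, n = 6), with a peak in all 6. HSC ranked lower, with a difference of -17.8 points (SE, 5.94; 95% CI, -29.7 to -5.84; adjusted p = 0.0326), although 2 HSC libraries overlapped the BMDM range. The call was lost in 6 of 12 fits with a library left out (highest adjusted p = 0.0818) and without 3 control BMDM libraries (-17.2 points; adjusted p = 0.0837). In diabetic HSC the percentile was 16.3 to 42.0 (median, 31.7; mean, 29.3 ± 9.10, n = 6), and the 5 diabetic unstimulated BMDM libraries stood at 48.9, 13.2, 41.4, 17.3 and 14.4. That difference was 2.28 points (95% CI, -10.2 to 14.8; adjusted p = 0.851). The test of the change in this difference between diabetic and control mice gave 20.0 points (95% CI, 2.76 to 37.3; adjusted p = 1.000), which was not a call.

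Camp held a promoter peak in all 12 LPS+IFN-γ BMDM libraries, at 35.5 to 58.3 (median, 44.5; n = 6) in control and 41.1 to 52.5 (median, 46.0; n = 6) in diabetic mice. LPS+IFN-γ against unstimulated BMDM gave 19.5 points in diabetic mice (95% CI, 6.95 to 32.0; adjusted p = 0.0729), where 2.85% of all genes were called (1.29% higher, 1.56% lower), and 2.87 points in control mice (95% CI, -9.05 to 14.8). Leaving out diabetic unstimulated BMDM replicate 1 made the diabetic difference a call.

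Ltf (chr9:111019271-111042767, plus strand) encodes the iron-binding protein lactoferrin, and Ngp (chr9:110419747-110423012, plus strand) neutrophilic granule protein. Ltf had group means of 38.4 to 46.9 and a promoter peak in 11 of 12 HSC, 10 of 11 unstimulated and 11 of 12 LPS+IFN-γ BMDM libraries. Its differences between HSC and unstimulated BMDM were 1.21 points (95% CI, -8.92 to 11.3) and 1.89 points (95% CI, -8.73 to 12.5) in control and diabetic mice. Ngp ranked low, with means of 18.9 to 27.3 and a peak in 5 of 12 HSC, 2 of 11 unstimulated and 4 of 12 LPS+IFN-γ BMDM libraries, and its differences of 5.11 and 7.83 points did not pass the threshold. S100a8 (chr3:90668978-90670035, plus strand) and S100a9 (chr3:90692632-90695721, minus strand) encode the calprotectin subunits, and Ly6g (chr15:75155240-75159126, plus strand) a surface protein of mature neutrophils. S100a8 had no H3K27ac promoter peak in any of 35 libraries, S100a9 had one in 1 HSC library, and Ly6g in 2 HSC libraries. No peak at this threshold does not show that the mark is absent.

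**Figure D3:**
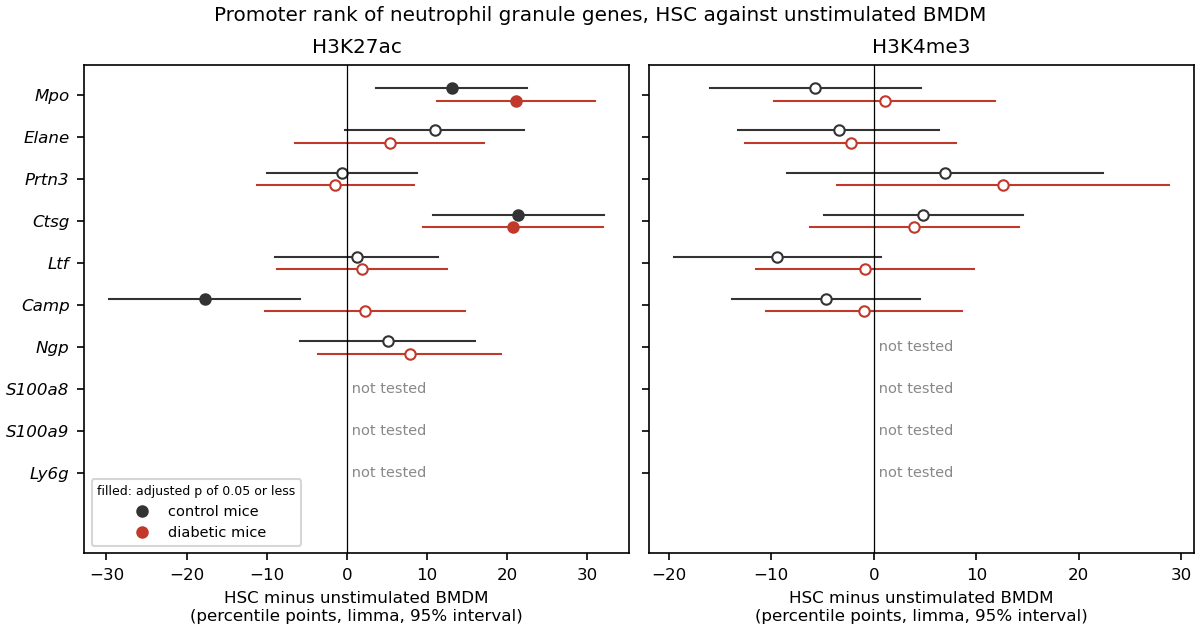
Difference in promoter percentile, HSC minus unstimulated BMDM (horizontal axis, percentile points with 95% interval from limma), for each gene in control (black) and diabetic (red) mice, H3K27ac at left and H3K4me3 at right; filled points have an adjusted p of 0.05 or less. Filled points are Mpo and Ctsg above 0 in both disease groups and Camp below 0 in control mice, all for H3K27ac.

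H3K4me3 showed no member past the threshold. In control mice 0 of 6 tested members were called, where 5.27% of 17255 genes were, and in diabetic mice 0 of 6, where 0.771% were. Mpo had an H3K4me3 promoter peak in 8 of 12 HSC, 11 of 11 unstimulated and 10 of 12 LPS+IFN-γ BMDM libraries, and with the RefSeq start only in 4 of 12 HSC and 3 of 11 unstimulated libraries. Its differences were -5.71 points in control (95% CI, -16.0 to 4.59) and 1.07 points in diabetic mice (95% CI, -9.73 to 11.9). Ctsg had one in 6 of 12, 6 of 11 and 5 of 12, and its differences were 4.84 (95% CI, -4.88 to 14.6) and 3.93 points (95% CI, -6.26 to 14.1). The upper limits for Ctsg lie below its H3K27ac differences, but the marks were ranked in separate libraries and the difference between marks was not tested. Elane was covered in 3, 7 and 8 libraries of the 3 cell states, Ltf in 5, 9 and 10, and Camp in 1, 5 and 9. The H3K4me3 lists of control HSC were also the shorter ones, and the part of list length in these counts was not tested.

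Prtn3 again stood apart from the others by its upstream start site, with an H3K4me3 promoter peak in all 35 libraries (a merged region at -7197 to -4629 bp) and group means of 62.2 to 85.1. With RefSeq start sites only its means were 25.1 to 34.6. Ngp and Ly6g had an H3K4me3 promoter peak in 1 HSC library each, and S100a8 and S100a9 in none.

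Across the loci, taken as the gene body with 10 kb to either side, H3K27ac rank was higher in HSC for Ctsg in both disease groups and for Mpo in control mice. In control mice 2 of the 9 members tested were called, where 16% of 19350 genes were (7.76% higher, 8.28% lower), and in diabetic mice 1 of 9, where 16% were (7.17% higher, 8.83% lower). For Ctsg the control HSC libraries stood at 11.6 to 40.0 (median, 36.5; mean, 32.3 ± 10.8, n = 6) and the control unstimulated BMDM libraries at 7.60 to 26.9 (median, 17.0; mean, 16.9 ± 7.71, n = 6), which overlapped, with a difference of 15.4 points (95% CI, 5.93 to 24.8; adjusted p = 0.0187). In diabetic mice the difference was 21.3 points (95% CI, 11.5 to 31.2; adjusted p = 0.00174). For Mpo it was 14.0 points in control (95% CI, 4.67 to 23.4; adjusted p = 0.0312) and 10.3 points in diabetic mice (95% CI, 0.464 to 20.1; adjusted p = 0.152), where the HSC libraries at 32.8 to 41.7 lay within the range of unstimulated BMDM, 10.9 to 44.2. Without the 3 control BMDM libraries neither control call remained (Mpo, 13.1 points, adjusted p = 0.0856; Ctsg, 12.4 points, adjusted p = 0.118). With a single library left out, the control call for Mpo was lost in 7 of 12 limma fits (highest adjusted p = 0.0927). That for Ctsg was lost in 3 of 12 (highest adjusted p = 0.0572), and the diabetic Ctsg call was kept in all 11.

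Merging the peaks of all libraries within each locus showed where the Mpo and Ctsg peaks lay. At Mpo, a region over the RefSeq start (chr11:87793135-87794215, GRCm38, -649 to 431 bp from the start) had an H3K27ac peak in 10 of 12 HSC and in 0 of 11 unstimulated and 0 of 12 LPS+IFN-γ BMDM libraries. The next region (chr11:87794403-87796870, 619 to 3086 bp), over exons, had one in 12, 5 and 2 libraries. At Ctsg, a region over the gene body (chr14:56099975-56102126, 448 to 2599 bp) had one in 11, 3 and 2 libraries. H3K4me3 over the Mpo body (688 to 2909 bp) was held by 8, 8 and 10 libraries and over Ctsg (1232 to 2043 bp) by 5, 6 and 5. These regions were picked for their gaps and are given without a test.

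Ltf had peaks on both sides of the contrast. A region upstream (chr9:111014978-111015711, -4314 to -3581 bp) was held by 2 of 12 HSC, 7 of 11 unstimulated and 10 of 12 LPS+IFN-γ BMDM libraries, and one downstream (chr9:111047322-111048334, 28030 to 29042 bp) by 10, 3 and 2. The region over the Ltf start (-1492 to 954 bp) was held by 11, 10 and 10. Downstream of Camp, H3K27ac (5351 to 6863 bp) was held by 11, 11 and 12 libraries, and H3K4me3 (chr9:109843049-109844022, 5434 to 6407 bp) by 2, 9 and 8.

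**Figure D4:**
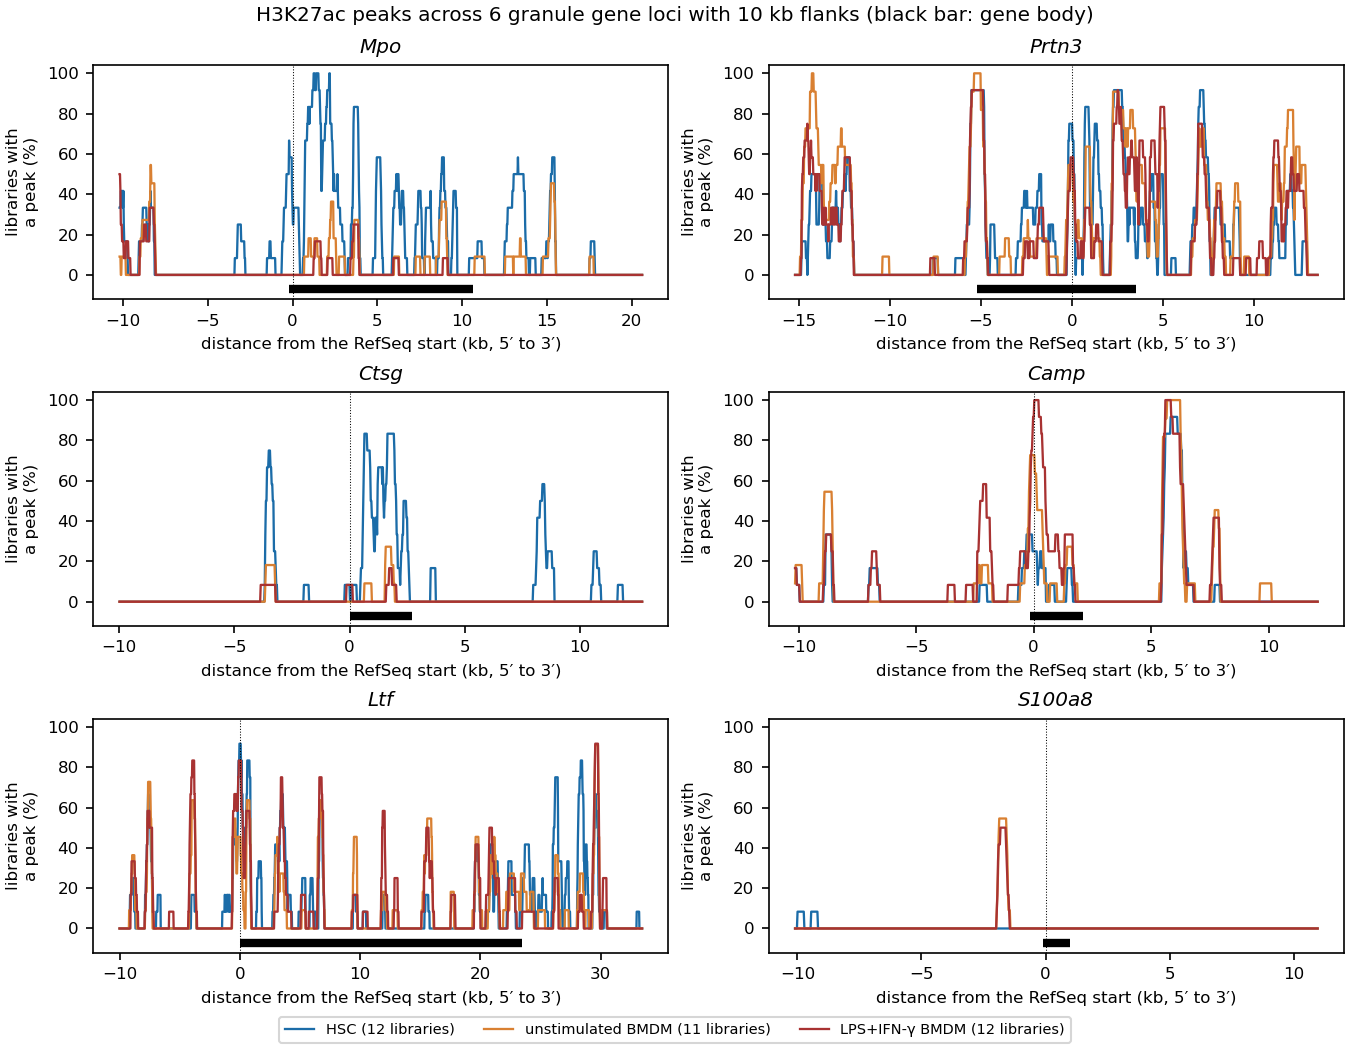
Share of libraries with an H3K27ac peak (vertical axis, percent) along 6 loci, by distance from the RefSeq start (horizontal axis, kb); lines are 12 libraries of HSC, 11 of unstimulated and 12 of stimulated BMDM, and the black bar is the gene body. HSC stand above both BMDM states over most of the Mpo and Ctsg gene bodies, and LPS+IFN-γ BMDM stand above HSC at the Camp start.

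The distal peaks near the remaining genes did not follow the HSC. A region -1981 to -1424 bp from the S100a8 start was held for H3K27ac by 0 of 12 HSC, 6 of 11 unstimulated and 6 of 12 LPS+IFN-γ BMDM libraries, and an H3K4me3 region there (-1970 to -1490 bp) by 0, 6 and 6. The S100a8 locus differences were -7.31 points in control (95% CI, -17.3 to 2.72; adjusted p = 0.337) and -11.01 points in diabetic mice (95% CI, -21.5 to -0.488; adjusted p = 0.153). The S100a9 locus had too few H3K27ac peaks to be tested. Near Ly6g, a region 12597 to 13532 bp from the start was held by 4, 8 and 7 libraries. Upstream of Ngp (-6882 to -5989 bp) a region was held by all 35. Elane and Prtn3 lie so close that their flanks overlap, and a peak there counts for both.

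The share of the gene body under H3K27ac peaks, a measure added after the data were seen, showed the breadth of the domains. For Mpo it was 24.1% to 48.2% (mean, 32.9% ± 8.39, n = 6) in control HSC and 0% to 16.3% (mean, 7.53% ± 6.21, n = 6) in control unstimulated BMDM. In diabetic mice it was 11.5% to 45.8% (mean, 28.4% ± 12.1, n = 6) in HSC and 0% to 6.41% (mean, 3.10% ± 3.01, n = 5) in unstimulated BMDM. HSC and BMDM did not overlap in either disease group. For Ctsg it was 42.9% ± 25.5 and 2.20% ± 5.40 in control, and 41.7% ± 15.6 and 7.51% ± 10.5 in diabetic mice. The Ctsg ranges of HSC and unstimulated BMDM overlapped in both disease groups. They were 0% to 70.8% and 0% to 13.2% in control, and 13.1% to 55.98% and 0% to 22.0% in diabetic mice. Ranked over all genes, the differences were called for Mpo (adjusted p = 0.00371 in control, 0.000182 in diabetic mice) and Ctsg (adjusted p = 0.00337 and 0.0114). For Camp, coverage was 9.76% in control HSC and 30.7% in control unstimulated BMDM (adjusted p = 0.0223), and 9.16% and 10.1% in diabetic mice (adjusted p = 0.860). By this measure 19.3% and 17.3% of 18008 genes were called in control and diabetic mice. For H3K4me3 it called Elane in control mice (-47.0 points; adjusted p = 0.0473), where 34.7% of all genes were called, and no member in diabetic mice.

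**Figure D5:**
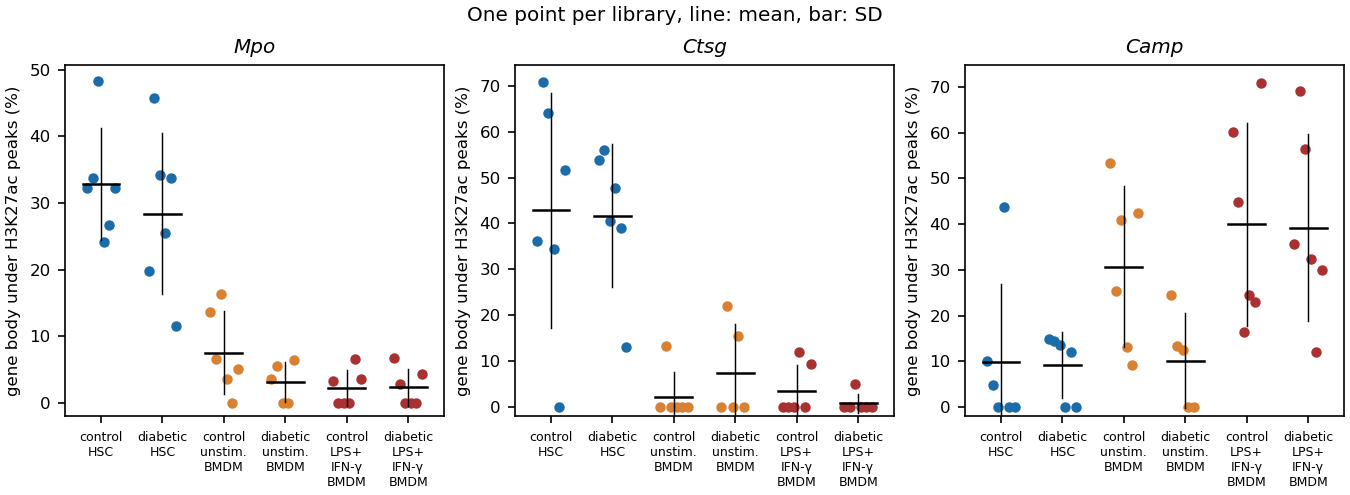
Share of the gene body under H3K27ac peaks (vertical axis, percent) for Mpo, Ctsg and Camp, 1 point per library by cell state and disease, with mean (line) and SD (bar). The Mpo points of HSC, 11.5% to 48.2%, do not overlap those of unstimulated BMDM within either disease group.

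No member passed the threshold between diabetic and control mice. For H3K27ac promoter rank, limma called 0% of 16981 genes between diabetic and control mice in each cell state. An unadjusted p under 0.05 was reached by 335 genes in HSC, 991 in unstimulated and 789 in stimulated BMDM. A share of about 0.05 of the genes tested is expected at that level without any difference, so such counts are not read as differences. The member differences between diabetic and control HSC ran from -6.60 (Ltf) to 4.83 points (Ctsg). For Mpo the difference in HSC was 0.364 points (95% CI, -9.02 to 9.75), and for Ctsg the interval was -5.88 to 15.5. In unstimulated BMDM, Camp gave -15.6 points (95% CI, -28.1 to -3.06; adjusted p = 0.810) and Mpo -7.66 (95% CI, -17.5 to 2.18; adjusted p = 0.902). In LPS+IFN-γ BMDM the members ran from -3.95 (Elane) to 5.67 points (Mpo). For H3K4me3 0% of 17255 genes were called in each of the 3 states (779, 684 and 891 had an unadjusted p under 0.05). The member differences in HSC ran from -8.69 (Ctsg) to 9.72 points (Ltf). The change of the HSC against BMDM difference with diabetes was also called for no gene (498 for H3K27ac and 724 for H3K4me3 at an unadjusted p under 0.05). For Ctsg that change was -0.669 points for H3K27ac (95% CI, -16.2 to 14.8).

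LPS+IFN-γ called 0 members at promoters or loci (background across loci in diabetic mice, 2.86%, with 1.34% higher and 1.52% lower). Shares over all genes are not given here for each mark, measure and disease group. The 0 is therefore not read as a result about these genes. In control mice 0% of genes were called for H3K27ac (894 at an unadjusted p under 0.05), where the arms hold the 4 libraries on the other label's side of the stimulation score. Mpo stood at 13.5 to 29.6 (median, 16.4; mean, 18.6 ± 5.95, n = 6) in control LPS+IFN-γ BMDM, with a peak in 1 library, 13.8 points below unstimulated BMDM (95% CI, -23.2 to -4.42; adjusted p = 0.936). In diabetic mice it was 15.8 to 39.4 (median, 19.5; mean, 24.3 ± 9.47, n = 6), a difference of -0.475 points (95% CI, -10.3 to 9.37). These contrasts share the unstimulated BMDM libraries with the contrasts against HSC.

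A further list of 22 neutrophil genes gave a mixed picture for H3K27ac. Of the 16 tested, 1 was higher and 2 were lower in HSC than in unstimulated BMDM in control mice, and 3 were higher and 3 lower in diabetic mice; the background shares were 7.73% higher and 8.27% lower in control, and 7.27% and 8.53% in diabetic mice. Serpinb1a, an inhibitor of neutrophil serine proteases, was 26.99 points higher in control (adjusted p = 0.000243) and 18.2 points higher in diabetic HSC (adjusted p = 0.0201). Cxcr2, a neutrophil chemokine receptor, was 19.5 points higher (adjusted p = 0.0175) and Srgn, the granule proteoglycan serglycin, 14.9 points higher (adjusted p = 0.0242) in diabetic mice. Cd63, a tetraspanin of granule and lysosome membranes, fell by 31.5 points in control (adjusted p = 9.68e-09) and by 27.9 points in diabetic HSC (adjusted p = 6.11e-07). Ctsc, the protease that activates the granule serine proteases, fell by 15.2 (adjusted p = 0.0168) and 14.6 points (adjusted p = 0.0297). The gelatinase gene Mmp9 fell by 13.8 points in diabetic mice (adjusted p = 0.0384). Gfi1, a transcription factor of the granulocyte lineage, was 9.59 points higher in control (adjusted p = 0.0599) and 10.4 points higher in diabetic HSC (adjusted p = 0.0502), neither a call. For H3K4me3, 1 of 14 was higher (Hp, 17.3 points, adjusted p = 0.0243) and 1 lower (Ctsc, -30.8 points, adjusted p = 0.0248) in control HSC, and none passed in diabetic mice.

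Marker lists of other cells were read in the same way, and some moved with the HSC. The mean H3K27ac percentile of 8 stem and progenitor genes was 52.0 to 60.3 in HSC and 31.8 to 48.9 in unstimulated BMDM libraries, and 5 of 8 were called higher in control HSC. The mean of 4 genes of mast cells, basophils and eosinophils was 19.4 to 33.7 in HSC and 14.4 to 22.5 in unstimulated BMDM, with Prg2 and Mcpt8 at 6 of 12 HSC and 0 of 11 unstimulated libraries and Cpa3 at 0 in all. These ranges overlapped, and of 3 genes tested 1 was called higher in control and 0 in diabetic HSC. The 8 macrophage genes were at 22.9 to 34.3 in HSC and 36.8 to 61.0 in unstimulated BMDM. C1qa had a peak in 0 of 12 HSC and 10 of 11 unstimulated libraries, but Msr1 had none in either state. Cd68 (12 and 11 libraries) and Mertk (11 and 11) were held in both states. The lists that follow also overlapped between the states. The mean of 4 B cell genes was 21.6 to 48.4 in HSC and 17.9 to 40.7 in unstimulated BMDM, with 0 of 4 called. That of 4 T cell genes was 34.1 to 44.8 and 28.8 to 45.3, with 1 of 4 called higher in each disease group. That of 3 megakaryocyte genes was 45.5 to 57.2 and 38.2 to 62.3, with 1 of 3 called lower in control and 1 higher in diabetic mice. That of 12 genes of stimulated macrophages was 24.3 to 38.6 and 27.3 to 45.8, with 2 of 11 tested called higher and 3 lower in control mice. Their part in the Mpo and Ctsg results was not tested, and fewer cells with the mark and less mark per cell cannot be told apart in bulk chromatin.

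The 5 genes whose H3K27ac promoter percentile was most like the mean of the 4 primary granule genes over the 35 libraries were Pard3b (Pearson r = 0.818), Hook1 (r = 0.811), S1pr4 (r = 0.810), Golim4 (r = 0.806) and Uck2 (r = 0.806). These are descriptions over libraries that share cell states. All 5 had a promoter peak in 12 of 12 HSC and 11 of 11 unstimulated BMDM libraries, with medians of 64.0 to 75.6 in HSC and 48.1 to 62.2 in unstimulated BMDM.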

How the data were processed

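ChIP-seq for H3K27ac (ab4729) and H3K4me3 (ab8580) gave 70 peak lists; 36 input samples were not used here. The submitters' processing notes name, without role or order, Trim Galore 0.3.3, cutadapt 1.8, FastQC 0.11.3, Bowtie2 2.2.6, Picard 2.19.2 and 2.18.14, bedtools 2.19.1, MACS2 2.2.7.1 and GRCm38/mm10. Peaks were called per library by the authors against input of the same cells. Each deposited list gives a score, a fold enrichment over background, and -log10 p and -log10 q values; the lowest -log10 q was 1.30104, so weaker signal is unseen. Values were ranked only within a list.

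Genes and 93513 start sites came from GENCODE M21. Percentiles of the best -log10 p per gene were compared by limma 3.58.1 (R 4.3.3; trend, robust; 6 groups per mark in 1 fit), over genes with a peak in at least 5 libraries, with Benjamini-Hochberg adjustment over all of them. Libraries with a promoter peak were compared by Fisher's exact test, two-sided, leaving out genes for which no split of their peaks between states reaches 0.05. Scripts were tested on simulated data (Python 3.11.15, scipy 1.17.1). Motif shares used all RefSeq promoters. The members and gene lists were chosen with earlier results of these data known. All 10 members were named; of the 22 further genes at most 3 per direction among those called, by size, and 2 not called; regions held by at least 80% of libraries of one state and at most 20% of another, and the most held region of a locus; and the 5 most similar genes. Other regions were named after their values were seen. Alternatives changed the peak threshold, peak number, ranking, window, overlap, gene filter, fit, covariate, replicate block and libraries. A marker list is not reported here.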

Additional observations from a re-analysis of the deposited data

Results flagged for a closer look

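Single libraries stood apart from the rest of their group in 16 of 78 groups of promoter percentiles. Genes without a promoter peak share the lowest ranks, so a single library with or without a peak can be flagged by that alone. The genes also share libraries, so no rate expected by chance is given. Most of the 16 are a library without a promoter peak among libraries with one, or the reverse. For H3K27ac the low libraries were Prtn3 in diabetic HSC replicate 6 (21.59, next 53.66), Ctsg in control HSC replicate 5 (17.03, next 42.35) and Ltf in diabetic LPS+IFN-γ BMDM replicate 5 (19.97, next 41.41). The high libraries were Ctsg in control unstimulated BMDM replicate 2 (33.4, next 20.1), Ctsg in diabetic LPS+IFN-γ BMDM replicate 3 (38.58, next 19.97), Ngp in control unstimulated BMDM replicate 3 (30.45, next 20.1) and Ngp in diabetic LPS+IFN-γ BMDM replicate 3 (38.56, next 19.97).

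For H3K4me3 the high libraries were Mpo in diabetic HSC replicate 1 (51.27, next 35.76), Ctsg in diabetic unstimulated BMDM replicate 2 (35.84, next 16.17), Camp in diabetic unstimulated BMDM replicate 1 (32.74, next 16.17), and control HSC replicate 1 for Elane (34.82), Ltf (37.15) and Camp (28.31), where the next library stood at 19.6 for all 3 genes. The low libraries were Mpo in control LPS+IFN-γ BMDM replicate 3 (16.97, next 30.92), Ltf in control unstimulated BMDM replicate 2 (13.49, next 30.71) and Ltf in diabetic LPS+IFN-γ BMDM replicate 5 (17.31, next 30.9).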

How the results depend on the processing

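Of 34 counts of members called, 28 were 0 under every alternative that did not leave out a single library. For H3K27ac promoter rank in control mice (3 called), the 20000 strongest peaks per list gave 0, ranking by fold, no gene filter, and leaving out 3 or, chosen after seeing the data, 4 control BMDM libraries gave 1 (Ctsg), and leaving out 1 library gave 1 to 3. In diabetic mice (2 called), the 20000 strongest peaks gave 0; Mpo and Ctsg then had a promoter peak in 4 libraries each, under the minimum of 5. LPS+IFN-γ in diabetic mice (0 called) gave 0 to 1 with a library left out. Occupancy (1 called) gave 2 (Mpo, Ctsg) with a -log10 q of 5 or more, with 500 bp windows and with RefSeq start sites, 0 with the 20000 strongest peaks and without 2 or 3 unstimulated control BMDM libraries, and 0 to 1 with a library left out. Locus rank in control mice (2 called) gave 3 with the share of the body covered (Camp added), 0 without 3 control BMDM libraries and 0 to 2 with a library left out; in diabetic mice (1 called) it gave 2 with the gene body alone or the share of the body covered, and 1 to 2 with a library left out. For H3K4me3 locus rank in control mice (0 called) the covered share gave 1 (Elane). Apart from these constructions, the cause was not tested. No called difference of a member changed sign. Differences that were not called could, as for Prtn3 H3K27ac (-0.555 to 6.75 points) and Mpo H3K4me3 (-5.71 to 2.505 points) in control mice with RefSeq start sites. With the 20000 strongest peaks Mpo, Ctsg and Camp could not be tested at H3K27ac promoters, so the counts that follow leave that setting out. They also leave out the fits without a single library. Among the other alternatives, the Mpo promoter call in control mice was kept in 3 of 13, Camp in 8 of 13 and Ctsg in 13 of 13. In diabetic mice Mpo and Ctsg were kept in 11 of 11 each.

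Replicate numbers did not pair the samples throughout: same-numbered libraries deviated together with r of -0.293 to 0.354 for H3K27ac and -0.216 to 0.364 for H3K4me3. Between LPS+IFN-γ and unstimulated BMDM of diabetic mice, every such r was above 0 (0.0229 to 0.354 and 0.0108 to 0.337). Other pairs there had means of -0.0289 and -0.0334. In control mice the ranges were -0.168 to 0.327 and -0.0102 to 0.364. Between diabetic and control LPS+IFN-γ BMDM, which came from different mice, every H3K27ac r was also above 0 (0.00481 to 0.182). The H3K4me3 r there ran from -0.0852 to 0.224. Whether same-numbered BMDM libraries share batches, or animals within a disease group, was not tested. With the replicate number as a block, 2 members (Ctsg, Camp) were called at promoters in control mice, Mpo being lost (13.06 points; adjusted p = 0.0664), and no other member call changed. Read depth is unknown.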
